A study of Mus musculus with 12 samples.

Results

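Insulin and the insulin-like growth factors (IGFs) signal through a small set of proteins, and 10 of the genes that encode them are described here in rhabdoid tumors of the mouse. They are the substrates Irs1, Irs2 and Irs4, the ligands Igf1 and Igf2, the receptors Igf1r, Insr and Igf2r, and the binding proteins Igfbp2 and Igfbp5. These 10 genes, of 24060 listed for each tumor, were chosen by name, and the set was chosen because Irs4 differed by tumor location in these same tumors. The location values of Irs4 are therefore a description with no test, and tests are given for the other 9 genes. All 10 genes were present in the data.

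The 12 tumors arose spontaneously in P0-CreC;Smarcb1 flox/flox mice kept on an FVB/N background. Smarcb1 encodes a core subunit of the SWI/SNF chromatin remodeling complex, and the P0-CreC transgene is active in neural crest cells and the Schwann cell lineage, so deletion is limited to the cells in which Cre was ever expressed. By location there were 4 retro-orbital tumors, 3 cheek tumors, 3 meninges tumors, 1 tumor of the vestibular nerve and 1 of the trigeminal nerve. All carried the same genotype, no normal tissue or Smarcb1-intact tumor was analysed here, and the age of the animal is not given per tumor. Whole pieces of tumor were sequenced as ribosomal RNA-depleted stranded libraries, so fewer cells of a type and less RNA per cell cannot be told apart.

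The depth behind the values ranged from 13206168 to 57128420 fragments per tumor. Smarcb1 was at 1.70 to 6.31 RPKM (fragments scaled to gene length and library total) across the 12 tumors, a value over the whole gene that does not measure the deletion. Vim, which marks mesenchymal and rhabdoid cells, was at 114 to 3001 RPKM. Cheek tumors 2 and 3 share the first part of their identifiers, as do cheek tumor 1 with meninges tumor 1 and retro-orbital tumor 3 with the trigeminal nerve tumor. The labels do not say if a shared identifier means a shared animal, and results that rest on them are also given with those tumors averaged. No pair of tumors agreed within sampling noise, and the highest correlation over genes on the log2(RPKM + 1) scale was 0.984, between cheek tumors 2 and 3.

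As background, insulin and the IGFs bind the receptor tyrosine kinases Insr and Igf1r, which phosphorylate docking proteins of the Irs family. Phosphorylated Irs proteins recruit PI3 kinase, which activates AKT and through it mTOR, and AKT keeps the FOXO transcription factors out of the nucleus. Igf2r binds IGF2 and carries it to the lysosome without signaling as a kinase, and the IGF-binding proteins hold the ligands outside the cell. Irs1 and Irs2 are used in most tissues, whereas Irs4 is X-linked, has a narrow expression range centred on the hypothalamus and developing tissues, and can drive PI3 kinase without growth factor stimulation in cells that overproduce it. Igf2 and the noncoding RNA H19 lie side by side in an imprinted cluster and share enhancers.

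The 3 substrate genes lie on different chromosomes of the mm10 (GRCm38) build. Irs4 spans 141710998 to 141725217 on chromosome X, Irs1 spans 82233105 to 82291439 on chromosome 1, and Irs2 spans 10984681 to 11008929 on chromosome 8, all on the minus strand. Their promoters are shown because the genes encode related docking proteins and had different patterns across the tumors. Each line below holds the 250 bases before the annotated start from RefSeq (GRCm38.p6), 5′ to 3′ on the gene's strand, and capitals mark the longest run that the promoter shares with that of Irs4 (for Irs4 itself, with that of Irs2).
Irs4, chrX:141725218-141725467: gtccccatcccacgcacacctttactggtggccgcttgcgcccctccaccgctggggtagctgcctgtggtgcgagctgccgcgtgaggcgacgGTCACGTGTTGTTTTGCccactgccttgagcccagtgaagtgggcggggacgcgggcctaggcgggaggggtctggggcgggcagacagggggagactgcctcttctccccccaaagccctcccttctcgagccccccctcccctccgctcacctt
Irs1, chr1:82291440-82291689: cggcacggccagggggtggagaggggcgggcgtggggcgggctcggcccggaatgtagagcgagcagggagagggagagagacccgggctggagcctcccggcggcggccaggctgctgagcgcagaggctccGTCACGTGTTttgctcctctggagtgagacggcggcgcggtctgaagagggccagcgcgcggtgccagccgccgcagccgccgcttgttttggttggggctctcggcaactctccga
Irs2, chr8:11008930-11009179: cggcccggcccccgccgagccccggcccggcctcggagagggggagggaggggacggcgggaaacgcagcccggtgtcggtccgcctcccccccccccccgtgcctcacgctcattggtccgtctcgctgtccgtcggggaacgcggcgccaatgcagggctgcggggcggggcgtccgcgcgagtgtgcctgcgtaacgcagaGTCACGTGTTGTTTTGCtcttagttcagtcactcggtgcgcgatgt
The run of 17 bases, GTCACGTGTTGTTTTGC, was found in the promoters of Irs4 and Irs2 and in no other of the 32851 promoters of the table, on either strand. Its first 10 bases, GTCACGTGTT, were also in the Irs1 promoter and in 25 promoters in all. Counted from the annotated start, the run begins at -156 in Irs4 and at -46 in Irs2, and the shorter one at -117 in Irs1, and it was looked for after the sequences had been seen. It contains the E-box CACGTG, which 7.15% of all promoters hold, and each of the 3 promoters also holds at least 1 GC box, GGGCGG, found in 35.7% of promoters. None of the 3 holds the TATA box TATAAA (13.6% of promoters), the homeodomain core TAATTA (5.29%) or the forkhead core GTAAACA (3.65%), and the CCAAT box (37.4%) was found in Irs2 alone. The motifs were searched on both strands of the window from 250 bases before to 50 bases after the start, and these letters describe sequence, not binding. All 3 promoters are GC-rich, at 69.2% (Irs4), 72.4% (Irs1) and 72.8% (Irs2) of the bases shown.

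Irs4 separated the cheek tumors from all others. It was at 8.05, 20.06 and 20.72 RPKM in the 3 cheek tumors, with 1425, 4090 and 1710 fragments behind these values. In the 4 retro-orbital tumors it was at 0.0295, 0.0599, 0.0224 and 0.0116 RPKM, which correspond to 5, 11, 8 and 3 fragments. The meninges tumors lay between, at 0.244, 0.201 and 1.26 RPKM, the vestibular nerve tumor was at 2.13 RPKM and the trigeminal nerve tumor at 0.106 RPKM. The cheek, meninges and retro-orbital values did not overlap. The lowest cheek value stood above the value of every other tumor, and the highest retro-orbital value below the lowest meninges value. Irs4 was chosen for its difference by location, so this separation is a description. The share of all genes with such a pattern is not given here. The mean was 16.3 ± 7.14 RPKM in the cheek (SD, n = 3), 0.568 ± 0.599 RPKM in the meninges (SD, n = 3) and 0.0309 ± 0.0207 RPKM in the retro-orbital tumors (SD, n = 4). A floor of 3 fragments was worth 0.0084 to 0.0364 RPKM in the different libraries, and the retro-orbital values lay between 1 and 4 times the floor of their library. The range from lowest to highest tumor, 1780-fold, was the widest of the 10 genes. Irs4 was above 1 RPKM in 5 of the 12 tumors, and its ordering below that level rests on few fragments.

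Irs1 had its highest mean in the meninges tumors. It was at 25.04, 8.03 and 13.83 RPKM in the meninges tumors, at 6.14, 1.08, 11.66 and 2.28 RPKM in the retro-orbital tumors, and at 5.31, 1.12 and 1.35 RPKM in the cheek tumors. All 3 meninges values stood above all 3 cheek values, while the retro-orbital tumors overlapped both. limma's F test over the locations, described below, gave Irs1 an adjusted p of 0.315. The vestibular nerve tumor was at 4.62 RPKM and the trigeminal nerve tumor at 5.95 RPKM. Irs2 showed no such order, with 7.64, 3.73, 21.70 and 5.13 RPKM in the retro-orbital tumors, 13.37, 2.73 and 3.45 RPKM in the cheek and 10.64, 7.54 and 7.69 RPKM in the meninges. Its highest levels were in the vestibular nerve tumor, at 29.74 RPKM, and in retro-orbital tumor 3, with the trigeminal nerve tumor at 20.30 RPKM.

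**Figure D1:**
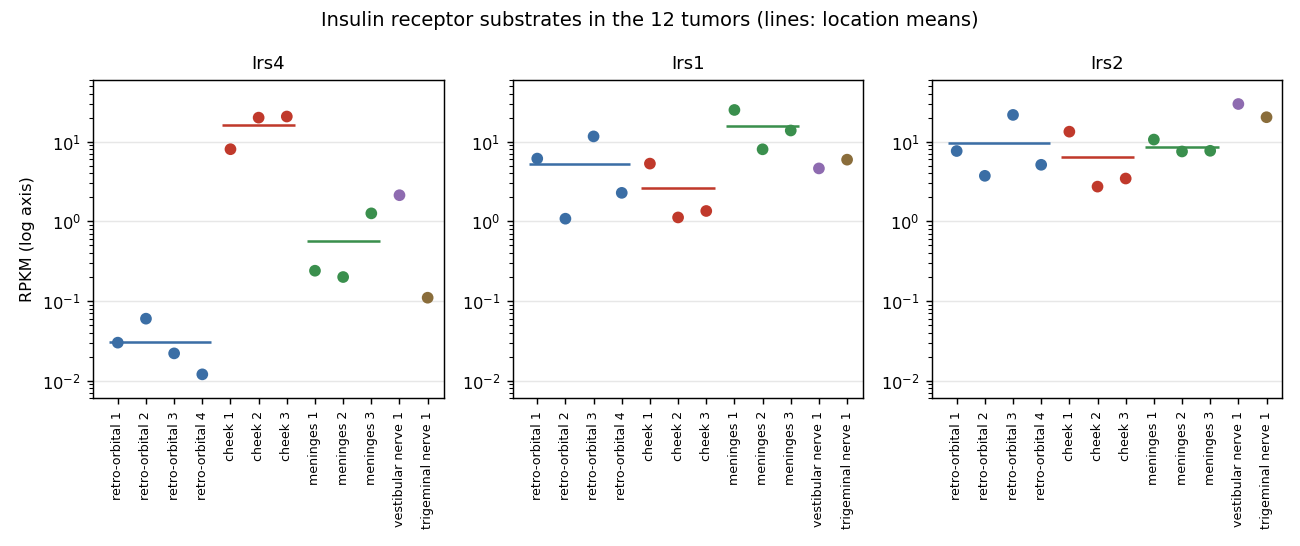
RPKM on a log axis of Irs4, Irs1 and Irs2 in each of the 12 tumors, 1 point per tumor, colored by location, with a line at the mean of each location that has 3 or 4 tumors. The 3 cheek tumors sit at 8.05 to 20.7 RPKM for Irs4, above every other tumor, while for Irs1 the meninges tumors have the highest mean but overlap the retro-orbital tumors, and for Irs2 the locations overlap.

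The mix of docking proteins, as the share of each gene in the summed RPKM of Irs1, Irs2 and Irs4, differed accordingly. Irs4 made up 83.9% and 81.2% of the sum in cheek tumors 2 and 3, and 30.1% in cheek tumor 1, where Irs2 held the largest share. In the vestibular nerve tumor and meninges tumor 3 the share of Irs4 was 5.84% and 5.53%, and in the other 7 tumors it was at most 1.27%. The sum itself was alike in the 3 cheek tumors, at 26.7, 23.9 and 25.5 RPKM, and spanned 4.87 to 36.5 RPKM over the 12 tumors. In the meninges tumors Irs1 held 69.7%, 50.9% and 60.7% of the sum. Irs2 was above Irs1 in 9 of the 12 tumors, all but the meninges ones, with a mean log2 ratio of 0.84 ± 1.12 (SD, n = 12, exact two-sided sign-flip test, p = 0.0269, adjusted over 3 ratios 0.0403). With tumors of a shared identifier averaged, the ratio was 0.78 and its adjusted p 0.105, and the call is also lost without any 1 of 8 tumors, namely the 3 cheek tumors, both nerve tumors and retro-orbital tumors 2, 3 and 4 (adjusted p of the exact test 0.063 to 0.0806). The fourth mouse substrate, Irs3, which has no working human counterpart, was at 11.35 RPKM in meninges tumor 1 and at most 1.15 RPKM in the other tumors.

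The levels of Irs4 can be set beside those of the tissue around each tumor. Of 10 skeletal muscle markers, 6 were at 1 RPKM or more in every cheek tumor, 5 in every retro-orbital tumor and 4 in every meninges tumor, and none was at 0 in any of these. Their summed level was 58.0, 672 and 377 RPKM in the cheek tumors, 13.8 to 267 RPKM in the retro-orbital tumors and 15.1 to 348 RPKM in the meninges tumors. Cheek tumors 2 and 3, with the most Irs4 at 20.06 and 20.72 RPKM, also had the highest muscle sums of all the tumors. Cheek tumor 1, with 8.05 RPKM of Irs4, had a lower sum than retro-orbital tumor 1, at 267 RPKM, which had 0.0295 RPKM of Irs4. The single markers did not all follow the sum: the skeletal actin Acta1 was at 1.46 RPKM in cheek tumor 1 and 62.84 RPKM in retro-orbital tumor 1, whereas the myosin heavy chain Myh2 was at 24.71 and 14.93 RPKM. In meninges tumors 1 and 3 the sum was mostly Myh1, Myh2 and Tnnt3. Acta1, Ckm, Mylpf, Mb and Des were at most 1.52 RPKM in every meninges tumor and at most 1.46 RPKM in cheek tumor 1. Each was at 10.97 RPKM or more in cheek tumors 2 and 3, and at 4.91 RPKM or more in retro-orbital tumors 1 and 4. The 5 fibroblast markers were all above 1 RPKM in every tumor. They summed to 1640 to 2140 RPKM in the cheek, 767 to 1820 RPKM in the meninges and 618 to 1170 RPKM in the retro-orbital tumors. Of 6 epithelial markers, 5 were at 1 RPKM or more in every cheek tumor, 1 in every retro-orbital and 3 in every meninges tumor. Their sums overlapped, at 359 to 747, 5.76 to 752 and 25.5 to 493 RPKM. The adipocyte sum was 2.40, 27.1 and 27.3 RPKM in the cheek, 1.62 to 18.9 RPKM in the retro-orbital tumors and 1.11 to 1.92 RPKM in the meninges. The part of muscle, fibroblasts, epithelium and fat in the level of Irs4 was not tested. Because Irs4 is X-linked, the X-inactivation transcript Xist and the Y-linked gene Ddx3y were read alongside. Xist was the higher of the pair in cheek tumor 1, which had 8.05 RPKM of Irs4. Ddx3y was the higher in cheek tumors 2 and 3, which share an identifier and had 20.06 and 20.72 RPKM. Within the cheek this difference cannot be told apart from the identifier, and its part in the level of Irs4 was not tested. Within the one identifier shared by a cheek and a meninges tumor, Irs4 was at 8.05 RPKM in cheek tumor 1 and 0.244 RPKM in meninges tumor 1.

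Of the 18 annotated genes that start within 500 kb of Irs4, 3 were in the data, and 2 of them were expressed. Col4a5 and Col4a6 encode basement membrane collagen chains and lie head to head, with their starts at -249.9 and -251.2 kb from that of Irs4 along the chromosome. Col4a5 was at 20.20, 12.05 and 10.99 RPKM in the cheek tumors, 3.48, 3.83, 4.71 and 0.98 RPKM in the retro-orbital tumors and 5.37, 2.77 and 12.88 RPKM in the meninges tumors. Col4a6 was at 12.14, 10.11 and 9.00 RPKM in the cheek, 0.14, 3.20, 2.25 and 0.37 RPKM in the retro-orbital tumors and 1.77, 0.85 and 6.64 RPKM in the meninges. For both, all cheek values stood above all retro-orbital values. In meninges tumor 3 and the vestibular nerve tumor, which had the most Irs4 outside the cheek, Col4a5 was at 12.88 and 12.61 RPKM, within the range of the cheek tumors, and Col4a6 at 6.64 and 4.57 RPKM, below it. The cheek-minus-retro-orbital difference was 1.91 on the log2(RPKM + 1) scale for Col4a5 (95% interval 0.80 to 3.03) and 2.40 for Col4a6 (1.10 to 3.70), and neither passed limma's test after Benjamini-Hochberg adjustment over all genes (adjusted p = 0.243 and 0.216). The third, Gucy2f, a guanylate cyclase of photoreceptors, was at 0.096 RPKM or less throughout. The antisense gene Gm15295, annotated across the start of Irs4, was not analysed here, and whether the counting used strand is not given in the sources used here.

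**Figure D2:**
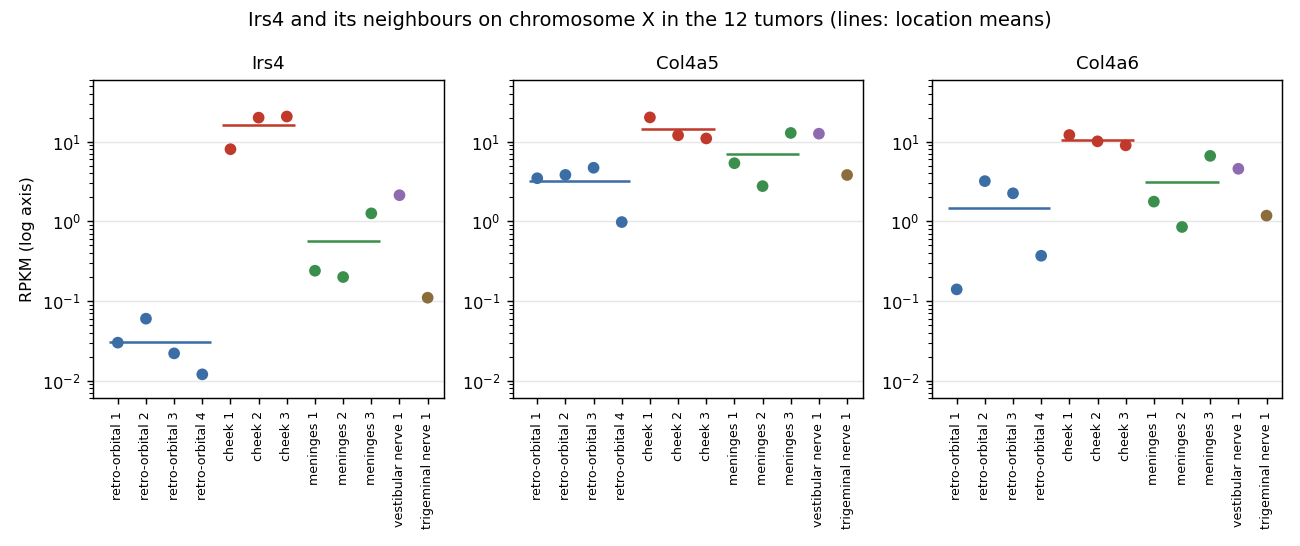
RPKM on a log axis of Irs4 and of its 2 expressed neighbours on chromosome X, Col4a5 and Col4a6, in each of the 12 tumors, 1 point per tumor, with a line at each location mean. All 3 genes have their 3 cheek values above all 4 retro-orbital values, but the span is far narrower for the collagens than for Irs4.

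The genes most like Irs4 were ranked by Pearson's r to it on the log2(RPKM + 1) scale over the 12 tumors, among 15042 genes at 1 RPKM or more in at least 3 tumors. The values are descriptions, since cheek tumors 2 and 3 weigh heavily in them. Pcsk6, a secreted proprotein convertase, came first with r = 0.934, followed by Ercc6, a DNA repair helicase (0.930), Msx1os (0.929), Mab21l2 (0.915) and the craniofacial homeobox gene Msx1 (0.912). The other 5 of the 10 closest were 1810058I24Rik, Zmpste24, Chd6, Mir6991 and Kctd4, at 0.897 to 0.905. Pcsk6 was at 54.86 and 51.99 RPKM in cheek tumors 2 and 3 and 7.20 RPKM in cheek tumor 1, against at most 3.64 RPKM elsewhere. Mab21l2, a gene of eye and craniofacial development, had the order of cheek tumors reversed, with 49.19 RPKM in tumor 1 and 38.26 and 36.28 RPKM in tumors 2 and 3. Ercc6 moved little, between 4.76 and 10.93 RPKM. None of the other 9 genes of the insulin and IGF set was among these 10, while Col4a6 stood at place 52 (r = 0.84) and Col4a5 at place 239 (r = 0.75).

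Among the ligands, Igf2 was the more variable by far. It was at 711.89, 222.26 and 128.84 RPKM in the meninges tumors and at 38.42, 1.71 and 1.84 RPKM in the cheek tumors. The retro-orbital tumors fell apart, with 3.34 and 5.42 RPKM in tumors 1 and 2 and 372.92 and 605.29 RPKM in tumors 3 and 4. The vestibular nerve tumor was at 20.95 RPKM and the trigeminal nerve tumor at 33.36 RPKM. The 3 meninges values did not overlap the 3 cheek values, and the retro-orbital tumors held levels as low as the cheek and as high as the meninges. limma's F test over the locations, described below, gave Igf2 an adjusted p of 0.368. The spread of Igf2 over the 12 tumors on the log2(RPKM + 1) scale, an SD of 3.01, was larger than that of 99.9% of the 15043 genes at 1 RPKM or more in 3 tumors. Igf1, which in the adult circulates mainly from the liver, ranged from 1.88 to 19.4 RPKM with a median of 4.05 RPKM, its highest value in retro-orbital tumor 4, and in the cheek tumors it was at 3.38, 3.88 and 3.48 RPKM. The 2 insulin genes were listed at 0 in most tumors, with Ins1 at most 0.11 RPKM and Ins2 at most 0.597 RPKM.

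Igf2 stood above Igf1 in 9 of the 12 tumors. The ratio of Igf2 to Igf1 was 0.442 and 0.529 in cheek tumors 2 and 3 and 0.738 in retro-orbital tumor 2, and reached 169 in meninges tumor 1. Its mean log2 value was 2.98 ± 2.91 (SD, n = 12, exact two-sided sign-flip test, p = 0.00781, adjusted over 3 ratios 0.0234). With tumors of a shared identifier averaged, it was 3.12 with an adjusted p of 0.0703, so the call is lost when those tumors count once.

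H19, the noncoding neighbour of Igf2, followed it closely. It was at 2760, 201 and 478 RPKM in the meninges tumors, 663.53, 36.81 and 34.66 RPKM in the cheek, and 118.56, 17.30, 469.06 and 1029 RPKM in the retro-orbital tumors. The 4 tumors with the least Igf2, retro-orbital tumors 1 and 2 and cheek tumors 2 and 3, included the 3 with the least H19. Over the 12 tumors Pearson's r was 0.87 (permutation p = 0.00029) and Spearman's rho 0.86 (permutation p = 0.00058) on the log2(RPKM + 1) scale, and r was 0.78 without the 2 tumors farthest from the median of Igf2. With tumors of a shared identifier averaged, r was 0.86 over 9 values (exact permutation p = 0.0017). This pair was chosen after its values had been seen. Igf2os, which is antisense to Igf2, was at 30.85 RPKM in meninges tumor 1 and 19.23 RPKM in retro-orbital tumor 4, the 2 tumors with the most Igf2, and reads of the pair can be told apart only if strand was used in counting.

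**Figure D3:**
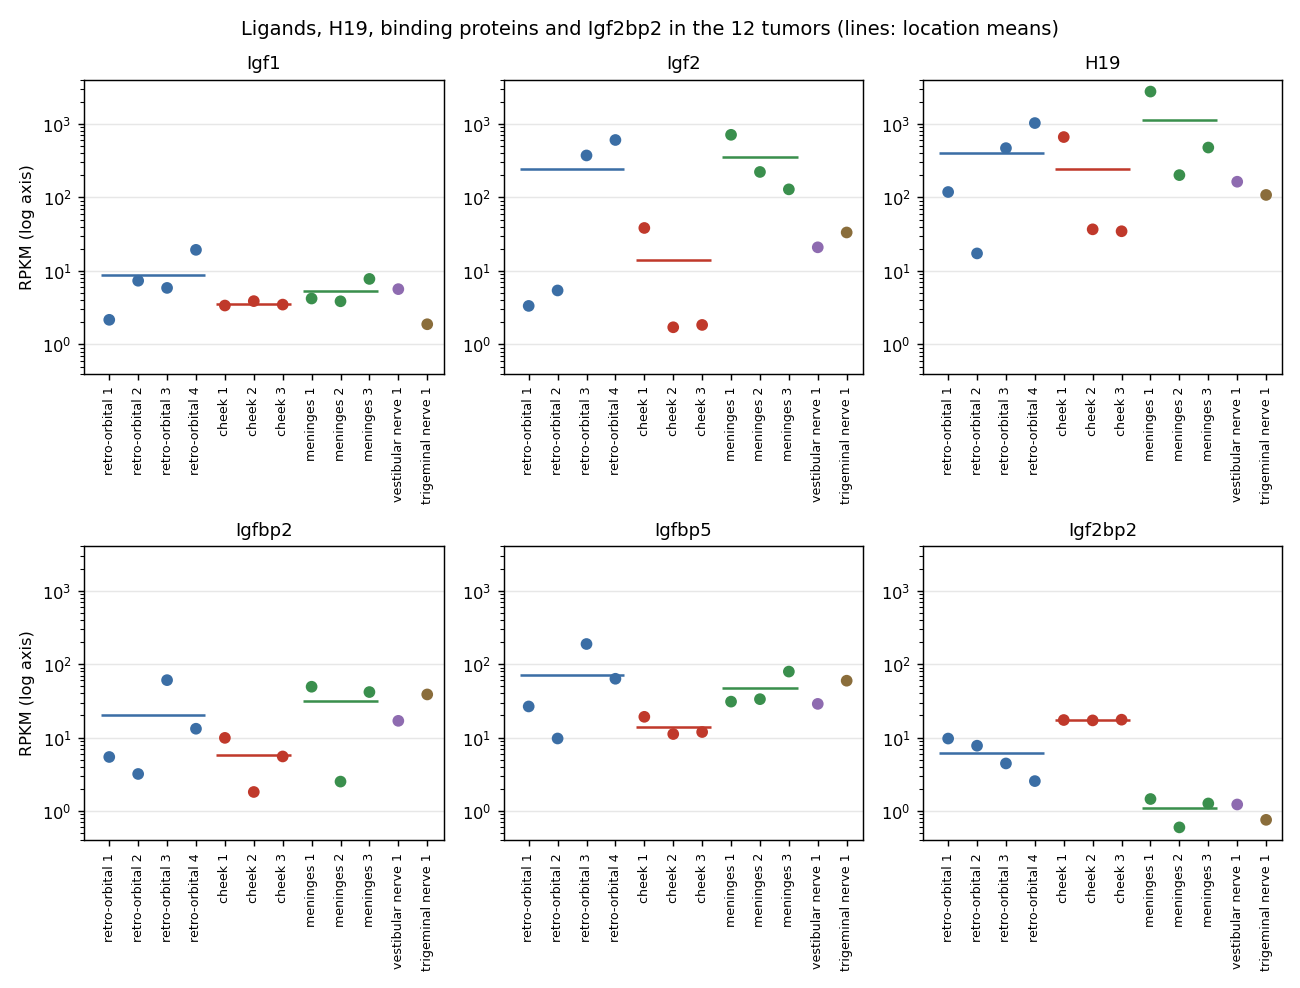
RPKM on a common log axis of the ligands Igf1 and Igf2, the noncoding RNA H19, the binding proteins Igfbp2 and Igfbp5 and the mRNA-binding protein Igf2bp2 in each of the 12 tumors, 1 point per tumor, with a line at each location mean. Igf2 runs from 1.71 to 712 RPKM with H19 alongside, Igf1 stays within 1.88 to 19.4 RPKM, and Igf2bp2 is at 17.2 to 17.5 RPKM in the cheek against 0.605 to 1.46 RPKM in the meninges.

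The receptors varied less than Igf2. Insr, the insulin receptor, had the narrowest range of the 10 genes, 6.72 to 18.9 RPKM, which is 2.81-fold. It was at 15.33, 15.70 and 16.21 RPKM in the meninges tumors, 18.07, 6.72 and 8.11 RPKM in the cheek and 12.92, 9.46, 18.91 and 12.26 RPKM in the retro-orbital tumors. Igf1r, the IGF1 receptor, was at 18.15, 8.94, 19.24 and 18.96 RPKM in the retro-orbital tumors, 5.06, 9.85 and 12.64 RPKM in the cheek and 3.97, 18.24 and 23.32 RPKM in the meninges. The related orphan receptor Insrr did not exceed 0.655 RPKM.

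The 2 kinase receptors did not keep a fixed proportion. The ratio of Igf1r to Insr was 0.28 in cheek tumor 1, 0.259 in meninges tumor 1, 0.385 in the vestibular nerve tumor and 0.282 in the trigeminal nerve tumor, and lay between 0.945 and 1.56 in the other 8. The 4 low tumors came from 4 locations and include the cheek and meninges tumors that share an identifier. Over all 12 the mean log2 ratio was -0.33 ± 1.06 (SD, n = 12), with Igf1r above Insr in 7 tumors (exact two-sided sign-flip test, p = 0.299), so neither receptor was shown to be the higher one. Igf2r, the scavenging receptor, was above Igf1r in 12 of 12 tumors, with a ratio from 1.19 in retro-orbital tumor 3 to 13.7 in retro-orbital tumor 1. It was at 249.29 RPKM in retro-orbital tumor 1 and between 19.9 and 57.2 RPKM in the other 11, with 40.39, 48.42 and 57.22 RPKM in the cheek. Airn, the noncoding RNA that overlaps Igf2r in antisense, was at 9.21 RPKM in retro-orbital tumor 1 and 1.11 to 4.70 RPKM elsewhere.

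**Figure D4:**
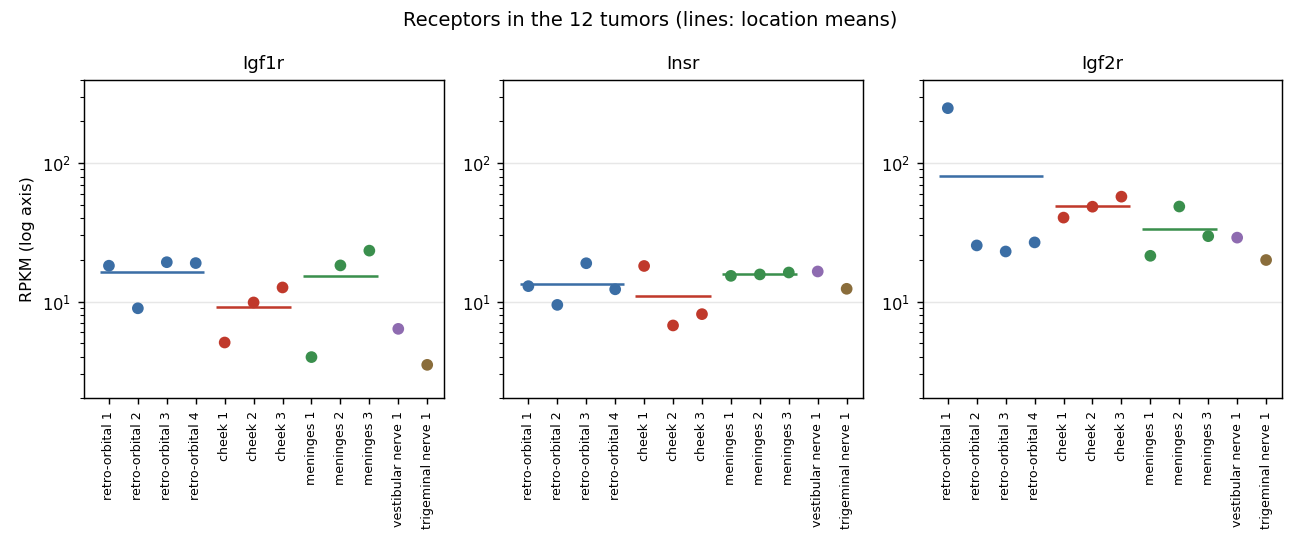
RPKM on a log axis of Igf1r, Insr and Igf2r in each of the 12 tumors, 1 point per tumor, with a line at each location mean. Insr stays within 6.72 to 18.9 RPKM, Igf1r is lowest in cheek tumor 1, meninges tumor 1 and both nerve tumors, and Igf2r stands at 249.29 RPKM in retro-orbital tumor 1 alone.

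The binding proteins Igfbp5 and Igfbp2 had low levels in the cheek tumors and in some of the others. Igfbp5, which binds the extracellular matrix, was at 19.19, 11.19 and 11.91 RPKM in the cheek tumors, 30.89, 33.37 and 79.21 RPKM in the meninges and 26.55, 9.73, 187.96 and 63.24 RPKM in the retro-orbital tumors. The cheek and meninges values did not overlap, while limma's F test over the locations gave Igfbp5 an adjusted p of 0.464. Igfbp2, an abundant binding protein of fetal tissues and the nervous system, was at 9.92, 1.82 and 5.54 RPKM in the cheek, 49.27, 2.52 and 41.70 RPKM in the meninges and 5.45, 3.20, 60.57 and 13.21 RPKM in the retro-orbital tumors, so meninges tumor 2 fell among the cheek tumors. Igfbp5 was above Igfbp2 in 11 of 12 tumors. Both were high in the trigeminal nerve tumor, Igfbp5 at 59.50 RPKM and Igfbp2 at 38.69 RPKM. The most abundant binding protein was Igfbp4, with a median of 353 RPKM and a range of 38.4 to 1540 RPKM, above both members in all 12 tumors. Not all binding proteins were low in the cheek. Igfbp6 was at 3.59, 35.26 and 37.83 RPKM there and at 12.77, 0.74 and 1.61 RPKM in the meninges.

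The 9 genes other than Irs4 were tested over the 3 replicated locations with limma's F test on log2(RPKM + 1), and all 9 passed the filter of 1 RPKM in at least 3 of the 10 tumors. After Benjamini-Hochberg adjustment over 14745 genes, 0 of the 9 passed an adjusted p of 0.05, against a background of 0.0407% of all genes called. At an unadjusted p under 0.05 there was 1 of 9, Irs1 (limma's unadjusted value 0.0266, adjusted p = 0.315), where 14.3% of all genes tested fell under that limit, and the adjusted p of Igf2 was 0.368. An exact permutation test of the F statistic over all 4200 labellings also called 0 of 9, with Irs1 at p = 0.0752 before and 0.618 after adjustment over the 9. When the shared identifiers were fitted as a random block, with a correlation of 0.93 estimated from only 2 pairs of tumors, limma called 2 of 9, Irs1 (adjusted p = 0.00386) and Igf2 (adjusted p = 0.0152), and it then called 2802 genes in all.

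The sizes of the location differences and their errors are given here by contrast. Between cheek and meninges, Irs1 differed by -2.26 on the log2(RPKM + 1) scale (95% interval -3.86 to -0.67, limma adjusted p = 0.20) and Igf2 by -5.35 (-9.79 to -0.91, limma adjusted p = 0.237). Igfbp5 differed by -1.60 (-3.56 to 0.37) and Igfbp2 by -1.74 (-4.41 to 0.93). For the receptors the differences between cheek and meninges were -0.60 for Insr (-1.37 to 0.17), -0.46 for Igf1r (-1.76 to 0.85) and 0.60 for Igf2r (-1.18 to 2.39). Irs2 differed by -0.62 (-2.04 to 0.80) and Igf1 by -0.40 (-1.67 to 0.87). None of the 9 passed in any of the 3 pairwise contrasts, where the background of called genes was 0.0475% for cheek against meninges, 0.0271% for cheek against retro-orbital and 0.0203% for meninges against retro-orbital. The median difference over all genes tested was -0.16 for cheek minus meninges, -0.02 for cheek minus retro-orbital and 0.13 for meninges minus retro-orbital.

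**Figure D5:**
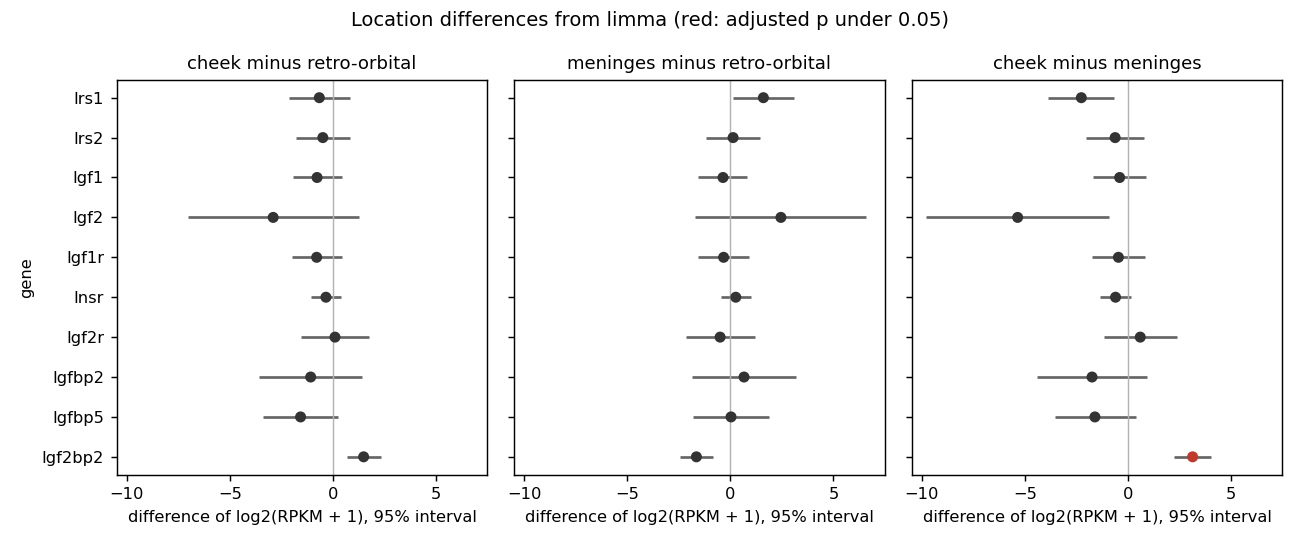
Differences of log2(RPKM + 1) between locations from limma, with 95% intervals, for the 9 members other than Irs4 and for Igf2bp2, in 3 panels by contrast; red marks an adjusted p under 0.05. Of the 30 values 1 is red, Igf2bp2 between cheek and meninges at 3.14, and the interval of Igf2 is the widest.

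The wider pathway was read from 78 genes grouped by role, of which 69 besides Irs4 passed the filter. In the F test 0 of 69 passed the adjusted threshold, and 11 of 69 had an unadjusted p under 0.05, which is 15.9% against 14.3% of all genes tested. In the pairwise contrasts 1 of 69 passed, Igf2bp2 between cheek and meninges, where 0.0475% of all genes tested were called. Igf2bp2, on chromosome 16 (22059009 to 22163299), encodes an RNA-binding protein that binds the IGF2 mRNA. It was at 17.36, 17.15 and 17.54 RPKM in the cheek tumors, 9.71, 7.76, 4.45 and 2.56 RPKM in the retro-orbital tumors and 1.46, 0.60 and 1.27 RPKM in the meninges tumors, with the vestibular nerve tumor at 1.23 RPKM and the trigeminal nerve tumor at 0.76 RPKM. The 3 locations did not overlap, which describes few tumors, and the share of all genes with such a pattern is not given here. The difference between cheek and meninges was 3.14 on the log2(RPKM + 1) scale (95% interval 2.26 to 4.02, SE 0.39, limma adjusted p = 0.0328). The call is lost with cheek tumors 2 and 3 averaged (3.14, adjusted p = 0.239) and with a pseudocount of 0.1 (3.93, adjusted p = 0.0798). It is also lost without cheek tumor 2 (adjusted p = 0.234), cheek tumor 3 (0.245) or meninges tumors 1, 2 or 3 (0.121, 0.164 and 0.149), while the direction and size held. Within the identifier shared by a cheek and a meninges tumor, Igf2bp2 was at 17.36 RPKM in cheek tumor 1 and 1.46 RPKM in meninges tumor 1. Its family members Igf2bp1 and Igf2bp3 did not share this order, Igf2bp3 being at 18.63, 0.73 and 1.10 RPKM in the cheek and highest in the vestibular nerve tumor, at 28.88 RPKM.

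Markers of several other cell types also differed between cheek and meninges tumors. Of 5 oligodendrocyte markers, 4 were at 1 RPKM or more in every meninges tumor and 1 in every cheek tumor, where Mobp was at 0 in 1 tumor. Their sum was 39.2 to 70.0 RPKM in the meninges, 5.92 to 10.3 RPKM in the cheek and 2.77 to 22.8 RPKM in the retro-orbital tumors. The astrocyte marker Gfap was at 228.19, 65.13 and 259.84 RPKM in the meninges and at most 0.59 RPKM in the cheek. In retro-orbital tumors 1 to 4 it was at 0.63, 0.31, 128.13 and 13.34 RPKM. Beside this, Igf2 was at 3.34, 5.42, 372.92 and 605.29 RPKM and Irs1 at 6.14, 1.08, 11.66 and 2.28 RPKM. In the vestibular and trigeminal nerve tumors Gfap was at 26.26 and 81.54 RPKM and Igf2 at 20.95 and 33.36 RPKM. All 6 astrocyte markers summed to 204 to 569 RPKM in the meninges, 183 to 227 RPKM in the cheek and 61.1 to 365 RPKM in the retro-orbital tumors. The 6 Schwann cell markers summed to 75.9 to 176 RPKM in the meninges, 36.0 to 38.9 RPKM in the cheek and 28.0 to 135 RPKM in the retro-orbital tumors. The 7 leukocyte and macrophage markers summed to 632 to 987 RPKM in the meninges, 409 to 448 RPKM in the cheek and 560 to 1340 RPKM in the retro-orbital tumors. The oligodendrocyte, Schwann cell and leukocyte sums did not overlap between cheek and meninges, while the astrocyte sums did. Most of the cheek astrocyte sum was Gja1, at 180 to 205 RPKM there and 31.2 to 111 RPKM in the meninges. Like Gfap, the markers Aqp4, Slc1a2 and Slc1a3 were lower in every cheek tumor than in every meninges tumor. Slc1a3, for example, was at 0.9 to 3.16 RPKM against 54.2 to 77.6 RPKM, while Aldh1l1 overlapped. The part of these markers in the levels of Irs1, Igf2, Igfbp5 and Igf2bp2 was not tested.

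Downstream of the substrates no gene passed the F test. Among 10 genes of PI3 kinase and AKT the highest was Akt1, with a median of 88.3 RPKM and a range of 66.9 to 117 RPKM, and none of the 10 passed limma's adjusted threshold, with 2 at an unadjusted p under 0.05. Among the other docking proteins the highest was Shc1, an adaptor to the RAS pathway, with a median of 57.0 RPKM, above Irs1 and Irs2 in 12 of 12 tumors. None of 8 mTOR genes, led by the ribosomal protein gene Rps6 at a median of 253 RPKM, and none of 12 FOXO factors and target genes, led by Txnip at 80.2 RPKM, passed, with 1 and 2 at an unadjusted p under 0.05. The background for these unadjusted counts is 14.3% of all genes tested. The median location difference of the 69 genes was -0.40 between cheek and meninges, beside -0.16 over all genes, and -0.21 between cheek and retro-orbital tumors, beside -0.02.

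Inhibitors of the receptors varied widely between single tumors. Grb10, an imprinted adaptor that binds and restrains both kinase receptors, was at 51.50, 572.78 and 596.18 RPKM in the cheek tumors, 498.46, 7.38, 33.54 and 668.97 RPKM in the retro-orbital tumors and 20.79, 27.54 and 21.09 RPKM in the meninges. Its relative Grb14 was at 65.92 RPKM in meninges tumor 2 and 102.92 RPKM in the vestibular nerve tumor and at most 9.76 RPKM elsewhere. Both genes were named after their values had been seen. By median the highest of the 13 inhibitors was Socs3, a feedback inhibitor of cytokine and insulin signaling, at 51.4 RPKM. None of the 13 passed limma's adjusted threshold, and 1 had an unadjusted p under 0.05, beside 14.3% of all genes tested.

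Pairs of members were also compared across the 12 tumors, all locations together. Pearson's r on the log2(RPKM + 1) scale was computed for 36 pairs, leaving out Igf2r, whose highest tumor stands apart, and 3 pairs passed after adjustment over the 36. Irs1 and Insr had r = 0.79 (permutation p = 0.0024, adjusted 0.039) and rho = 0.66 (permutation p = 0.023, adjusted 0.12), with r = 0.84 without the 2 tumors farthest from the median of Irs1. Irs2 and Insr had r = 0.78 (permutation p = 0.0031, adjusted 0.039) and rho = 0.83 (permutation p = 0.0013, adjusted 0.046), with r = 0.75 when the same was done for Irs2. Igfbp2 and Igfbp5, which lie next to each other on chromosome 1, had r = 0.77 (permutation p = 0.0032, adjusted 0.039) and rho = 0.72 (permutation p = 0.011, adjusted 0.095), with r = 0.65 without the farthest 2. None of the 36 passed with tumors of a shared identifier averaged to 9 values, or after quantile normalization. Irs4 was in none of the 3 pairs, and its r to Igf2 was -0.57, which was -0.15 without the 2 tumors farthest from the median.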

How the data were processed

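RNA from 12 tumors was sequenced as stranded, ribosomal RNA-depleted libraries. Per the submitters' processing notes, bcl2fastq 2.17, STAR, HTSeq, edgeR and limma were used with mm10. The deposited values are RPKM per gene, computed by the authors, 1 column per tumor, and their strand setting is not given in the sources used here. The number of fragments behind each library was worked out from the spacing of its lowest RPKM values, using 1563 genes whose values came out whole within 0.15 fragments. Intervals and floors (3 fragments) on these totals cover counting error only. Fragments behind a gene were worked out with the smallest length at which its values came out whole in every tumor. For Irs4 this length, 6248 bases, was not that of an annotated transcript, so its true counts could be a multiple of those given. Of 24060 rows, 27 held a date in place of a symbol and were kept under that name.

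Location was tested in 10 tumors (4 retro-orbital, 3 cheek, 3 meninges) with limma 3.58.1 (R 4.3.3) on log2(RPKM + 1), with trended, robust variance, for genes at 1 RPKM or more in at least 3 tumors, with Benjamini-Hochberg adjustment at 0.05. A difference on this scale understates the change of low genes. The vestibular and trigeminal nerve tumors, 1 each, were described only. Where values of locations are said not to overlap, the share of all genes with such a pattern is not given here. These statements are therefore descriptions of few tumors. Ratios used a pseudocount of 0.1 and exact sign-flip tests, and correlations 100000 resamples, in Python 3.11.15 with scipy 1.17.1. The limma, ratio and fragment computations were tested on simulated data. Because no label says that tumors with different identifiers come from separate animals, p-values measure only the spread between these tumors.

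The members, gene lists and tests were chosen with earlier results of these data known. The genes named are the members, pathway genes past a threshold, the highest gene of each list, the 10 genes closest to Irs4, genes that start within 500 kb of it, and markers that move with a result. Promoters came from RefSeq (GRCm38.p6), where 9 of the 10 members had an entry. Alternatives were another pseudocount, other filters, quantile normalization, leaving out each tumor, and shared identifiers as a block or a mean.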

Additional observations from a re-analysis of the deposited data

Results flagged for a closer look

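Among the 4 retro-orbital tumors, 21 genes were screened on the log2(RPKM + 1) scale for a tumor whose gap to its nearest neighbour took up a larger share of the group's range than Dixon's 95% critical value for 4 samples. Chance gives about 1 such gene in 20, or 1.1 here, and 3 were found. For Igf2r the gap was 0.938 of the range, with retro-orbital tumor 1 at 249.29 RPKM and the others at 22.99 to 26.74 RPKM. For Igf1r it was 0.922, with retro-orbital tumor 2 lowest at 8.94 RPKM and the others at 18.15 to 19.24 RPKM. For Socs3 it was 0.958, with retro-orbital tumor 3 at 160.17 RPKM and the others at 51.60 to 54.11 RPKM.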

How the results depend on the processing

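Over the 10 fits that left out 1 tumor each, limma's F test called 0 to 198 genes against 6 with all 10 tumors, with 198 without cheek replicate 1. It called 10 genes with no filter beyond a value above 0, 15 with a filter of 0.1 RPKM, 0 with cheek tumors 2 and 3 as their mean, and 2802 with the identifier as a random block, whose correlation of 0.93 comes from 2 pairs. Among the 9 members other than Irs4 that block called 2 and each other alternative 0, and 151 of 153 single results stayed above the threshold. Among the pathway genes the F test called 16 with the block and 0 to 1 with a tumor left out, against 0.

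Between cheek and meninges 7 genes were called, against 2 with a pseudocount of 0.1, 18 with no filter, 17 with the lower filter, 13 after quantile normalization, 4243 with the block, 0 with cheek tumors 2 and 3 averaged and 0 to 527 with a tumor left out. Of the pathway genes 1 was called there, against 0 with a pseudocount of 0.1, 20 with the block, 0 with the cheek pair averaged and 0 to 2 with a tumor left out. Between cheek and retro-orbital tumors 4 genes were called, against 2 with no filter, 2 with the block, 0 with the cheek pair averaged and 0 to 147 with a tumor left out. Between meninges and retro-orbital tumors 3 were called, against 7 with no filter, 9 with the lower filter, 0 with the cheek pair averaged and 0 to 41 with a tumor left out.

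For Igf2bp2 the difference between cheek and meninges was 2.96 to 3.27 with a tumor left out. It lost its call at 3.93 with a pseudocount of 0.1 and at 3.14 with the cheek pair averaged. The mean log2 ratio of Igf2 to Igf1 was 2.58 to 3.35 with a tumor left out, and 3.12 and no longer called with shared identifiers averaged. That of Irs2 to Irs1 was 0.68 to 1.03 with a tumor left out, losing its call without any 1 of the cheek or nerve tumors or of retro-orbital tumors 2, 3 and 4. It was 0.68 with a pseudocount of 1 and 0.78 with shared identifiers averaged, neither called. That of Igf1r to Insr stayed between -0.41 and -0.18 with a tumor left out and was not called. Of the member pairs 3 were called, against 0 after quantile normalization and 0 with shared identifiers averaged. The 3 ratios and the Igf2bp2 difference kept their sign under every alternative run, and the cause of the lost calls was not tested. The number of tumors, 3 or 4 a location, limits what could be called, and the retro-orbital levels of Irs4 rest on 3 to 11 fragments. The replicate numbers are given in accession order and pair no tumors, so the shared identifier was the only pairing fitted.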
